A study of Mus musculus with 4 samples.

Results

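Conventional CD4 T cells were taken from a single-cell RNA-seq series of CD45-enriched cells of the mouse liver by a gate on unique molecular identifiers (UMIs, the barcoded transcripts counted in each droplet). The members were chosen by their UMIs of 14 genes. A cell was a member if it held at least 1 UMI of Cd4, at least 1 UMI of Cd3d, Cd3e and Cd3g together, at most 1 UMI of the cycling genes Mki67 and Top2a together, and none of Foxp3, Cd8a, Cd8b1, Zbtb16, Klrb1c, Cd79a, Siglech or C1qa. The gate found 246 members among 25161 cells, kept for a floor of 200 detected genes and a ceiling of 10% for mitochondrial UMIs. They came to 123 cells in the library Ex 1 and 56 in Ex 2, against 42 in Sed 1 and 25 in Sed 2. Since the gate used these values, the levels of its genes are no finding here.

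CD4 T cells recognise peptides on MHC class II and help other immune cells through cytokines and through contact, above all through CD40 ligand, which licenses dendritic cells, macrophages and B cells. They leave the thymus as naive cells that recirculate through lymphoid organs with the help of CCR7, and after activation they take on effector programmes such as Th1, Th2, Th17 or follicular help, or settle in tissues such as the liver sinusoids. Regulatory T cells, marked by Foxp3, and the innate-like NKT cells, marked by Zbtb16 and common in mouse liver, may also carry CD4.

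All libraries came from male mice, 8 weeks old by the labels, that carried MC38 tumours, a mouse colon carcinoma line, and were killed 3 weeks after the tumour injection in a model of liver metastasis promoted by surgical stress. The Ex libraries came from mice exercised before the operation (PEx in the protocol), and the Sed libraries from sedentary mice. Each group had 2 libraries of the non-parenchymal fraction, enriched with CD45 beads and made with the 10x 3′ v3.1 kit. The labels number the libraries but do not say whether each is 1 animal or a pool. The p-values therefore measure only the spread between these libraries, estimated in part from the spread shared across genes.

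The members' sums held 542422 and 301556 UMIs in Ex 1 and Ex 2, against 169860 and 91109 UMIs in Sed 1 and Sed 2. Median UMIs per member were 3503 and 4621 in the Ex libraries, against 3822 and 2558 in the Sed libraries. Levels are given as CPM, the UMIs of the summed members scaled to the same total in each library, and no level is compared between genes. The Sed sums are small: 1 UMI in Sed 2 is 11.0 CPM. A gene of low level could pass the filter on low counts through the Ex libraries alone or through the Sed libraries alone. Counts and medians over the tested genes of a list are therefore descriptions of those genes alone.

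The label was checked against 4 markers, of which Cd4 and Cd3e belong to the gate. Of the members 244 of 246 held a UMI of Trac, Trbc1 or Trbc2, the constant parts of the alpha-beta T cell receptor. Cd40lg (chromosome X, 57212143 to 57224042, GRCm38), which encodes CD40 ligand, was found in 31 of the Ex 1 members and 12 of the Ex 2 members, against 3 in Sed 1 and 4 in Sed 2. No Cd40lg UMI occurred in 4421 C1qa-positive cells without CD3, which should lack it and had median depths from 3881 to 6477 UMIs, a count of 0 that allows a share of cells with a UMI, not of cells that express the gene, of up to 0.0679%. CD8 T cells held it in 4 and 2 cells of the Ex libraries against 0 and 1 of the Sed libraries. Icos (chromosome 1, 60977927 to 61000320), a costimulatory receptor of activated T cells, was found in 35.8% and 41.1% of members in Ex 1 and Ex 2, against 26.2% and 56.0% in Sed 1 and Sed 2, and in at most 9.34% of the C1qa-positive cells. Both markers outside the gate were thus present in the members of every library, but they do not set the members apart from all other T cells. Cells with Zbtb16 or Klrb1c had 35.2 and 71.6 CPM of Cd40lg in Ex 1 and Ex 2, against 6.75 and 42.0 CPM in Sed 1 and Sed 2. Regulatory T cells had 381 and 619 CPM of Icos in Ex 1 and Ex 2, against 252 and 215 CPM in Sed 1 and Sed 2.

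The gate is narrow, and many members sit at its edge. Exactly 1 Cd4 UMI was seen in 141 members and 2 or more in 105, and 11 members had exactly 1 CD3 UMI. Just outside it, 893 cells met every other condition with no Cd4 UMI, 29 met every other condition with no CD3 UMI, and 65 were left out by a single UMI of an excluded gene. Of the 450 non-cycling cells with Cd4 and CD3 UMIs, 73 were left out with Foxp3, 52 with Cd79a and 46 with C1qa, and a cell could carry several of these. Among the members, 5 and 5 cells of the Ex libraries and 1 and 1 of the Sed libraries had a doublet score above the expected rate, and 2 members shared a barcode sequence with a cell of another library.

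Conventional CD4 T cells made up a larger part of the kept cells in the Ex libraries than in the Sed libraries. They were 2.03% of the kept cells in Ex 1 (95% exact binomial interval 1.69 to 2.42) and 1.32% in Ex 2 (0.999 to 1.71), against 0.578% in Sed 1 (0.417 to 0.781) and 0.329% in Sed 2 (0.213 to 0.485). The groups did not overlap, and the means were 1.68% ± 0.502 in Ex and 0.454% ± 0.177 in Sed (SD, n = 2 libraries each). The share rose by 1.90 ± 0.39 (SE) on the log2 scale, with an adjusted p of 0.00182 over 7 gated classes in edgeR's quasi-likelihood test. It was the only one of the 7 classes called (14.3%), but whether its difference exceeds that of the other classes was not tested. The CD3-positive cells outside the other gates were 11.6% and 8.72% in Ex 1 and Ex 2, against 5.03% and 6.38% in Sed 1 and Sed 2, with a log2 difference of 0.83 ± 0.30 and an adjusted p of 0.0501. Regulatory T cells had a log2 difference of 1.41 ± 0.54 with an adjusted p of 0.0501, and cells with Zbtb16 or Klrb1c one of 0.66 ± 0.32 with 0.099. CD8 T cells, gated in the same way on Cd8a or Cd8b1, were 5.91% and 5.61% of the kept cells in Ex 1 and Ex 2, against 4.20% and 6.42% in Sed 1 and Sed 2, with a log2 difference of 0.12 ± 0.31 and an adjusted p of 0.72.

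The share was also higher among the cells with a CD3 UMI. These include CD3-positive cells with a UMI of Cd79a, Siglech or C1qa, so not all need be T cells. Of the cells with a CD3 UMI, conventional CD4 T cells were 8.10% and 6.60% in Ex 1 and Ex 2, against 4.23% and 2.03% in Sed 1 and Sed 2, a log2 difference of 1.27 ± 0.38 with an adjusted p of 0.033 over 6 classes in edgeR. Cells with at least 1000 UMIs were thinned to 1000, which left out 466 and 215 shallower cells in Ex 1 and Ex 2, against 349 and 788 in Sed 1 and Sed 2. Of the thinned cells the gate found 1.07% and 0.646% in the Ex libraries, against 0.289% and 0.132% in the Sed libraries, with Ex higher among the cells deep enough to be thinned. Regulatory T cells were 0.0537% and 0.0248% of the thinned cells in Ex, against 0.0579% and 0.0147% in Sed, so their groups overlapped. The call was lost without Ex 1, at a log2 difference of 1.54 with an adjusted p of 0.262, and without Ex 2, at 2.16 with 0.0774; over all alternatives the adjusted p ran from 0.000313 to 0.262. A share of cells cannot tell more CD4 T cells from fewer cells of other kinds, and intervals cover counting error only.

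**Figure D1:**
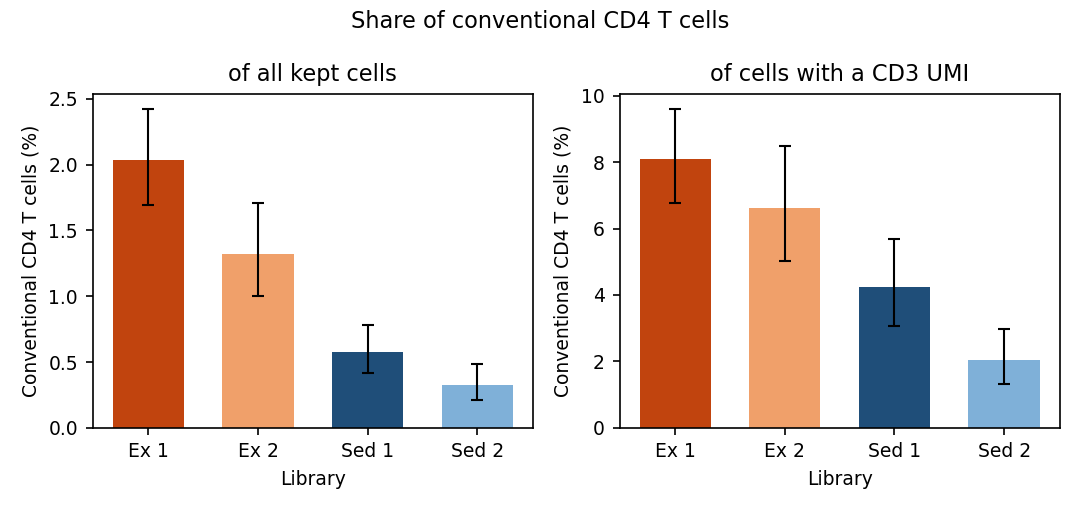
Percent of conventional CD4 T cells among all kept cells (left) and among cells with a CD3 UMI (right) in each library. Bars give the share and whiskers the 95% exact binomial interval. Both Ex libraries, at 2.03% and 1.32% of kept cells, lie above both Sed libraries, at 0.578% and 0.329%.

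The libraries differed in the level of naive cell genes, and Sed 1 stood apart from the other 3 for Il7r. Il7r, the receptor chain for the survival cytokine IL-7, had 297 and 481 CPM in Ex 1 and Ex 2, against 1071 and 428 CPM in Sed 1 and Sed 2. It was in 52.0% and 62.5% of Ex members, against 90.5% and 68.0% of Sed members, and in at most 4.69% of the C1qa-positive cells. Sed 1 was thus the highest library, and Sed 2 lay within or next to the range of the Ex libraries. Ccr7, a homing receptor of naive and central memory T cells, was in 19.5% and 41.1% of Ex members, against 47.6% and 28.0% of Sed members, and in at most 7.53% of the C1qa-positive cells. Thinned to 1000 UMIs, Ccr7 was in 9.76% and 16.1% of Ex members, against 23.8% and 20.8% of Sed members. The neutrophil gene S100a8 was in 10.6% and 10.7% of Ex members, against 42.9% and 24.0% of Sed members, and its part in these shares was not tested. In the log2 CPM of 3281 genes the 2 Sed libraries had a correlation of 0.79 with each other and the 2 Ex libraries one of 0.93, as a description of libraries of unequal depth.

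Several effector genes were at 0 or low in Sed 1. No UMI of Tbx21, the Th1 regulator, of Ifng, of Cxcr6, a receptor that keeps T cells in the liver, or of Nkg7, a cytotoxic granule gene, was seen among its 169860 UMIs, where 3 UMIs would be 17.7 CPM. Nkg7 had 603 and 388 CPM in Ex 1 and Ex 2 and 329 CPM in Sed 2. The chemokine gene Ccl5 had 1639 and 1758 CPM in Ex 1 and Ex 2, against 29.4 and 2272 CPM in Sed 1 and Sed 2. Ifng, the main Th1 cytokine, had 269 and 79.6 CPM in the Ex libraries and 98.8 CPM in Sed 2, so Sed 2 lay inside their range. For Ccl5 and Tbx21 the gap between the 2 Sed libraries was larger than that between the group means.

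**Figure D2:**
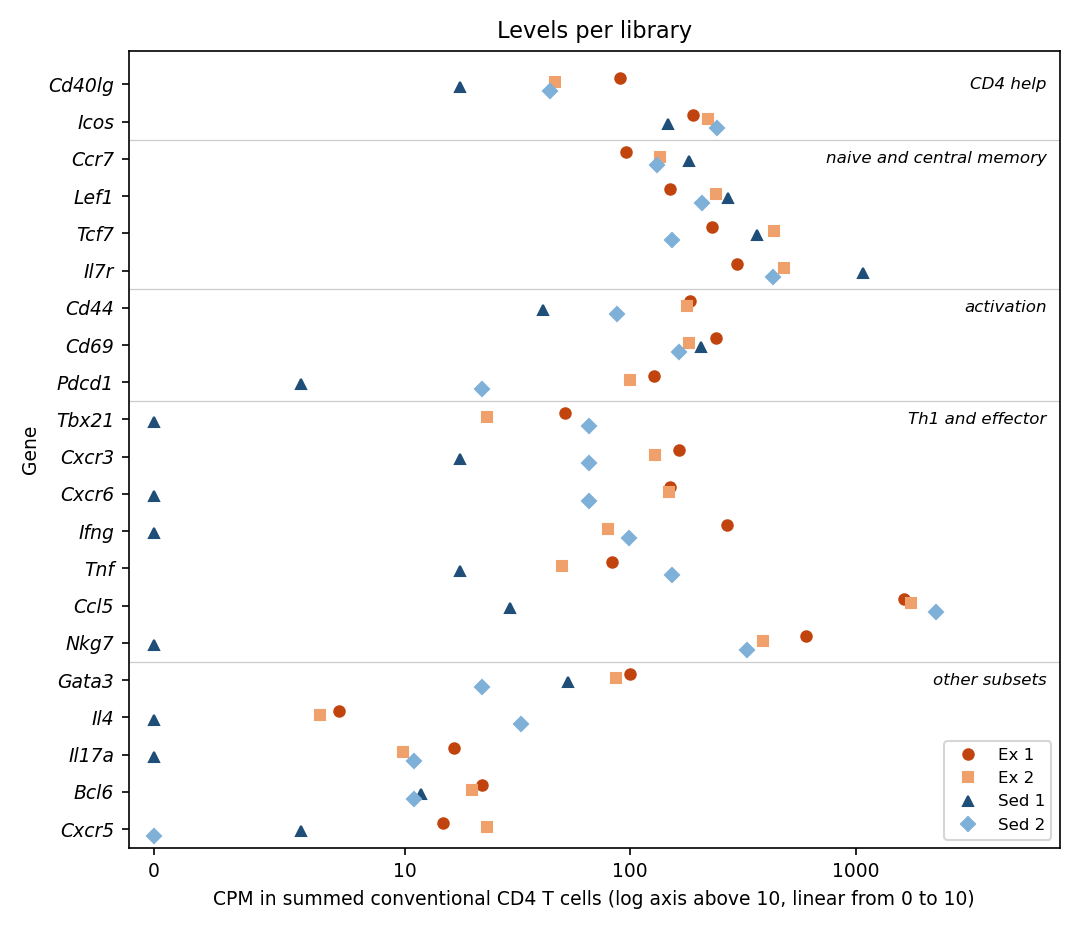
CPM of 21 genes in the summed conventional CD4 T cells, 1 point per library, on an axis that is logarithmic above 10 CPM and linear from 0 to 10. Pdcd1, Cd44, Cxcr3, Cxcr6 and Gata3 are among the genes whose 4 points split by group. For Ccl5, Nkg7, Ifng and Tbx21 the Sed 1 point lies at or near 0 and the Sed 2 point near the Ex points. Of these only Nkg7 has its Sed 2 point below both Ex points.

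No gene passed the test between the Ex and Sed members. edgeR's quasi-likelihood test called 0 of 3281 genes at an adjusted p under 0.05 (0%), DESeq2's Wald test also called 0, and 252 genes (7.68%) had an unadjusted p under 0.05, 135 of them higher (4.11%) and 117 lower (3.57%) in Ex. The levels of the 2 groups did not overlap, with Ex higher, for 814 genes (24.8%), and with Ex lower for 451 (13.7%). The median of the prior degrees of freedom, which stand for the spread shared across genes, was 10.2 in this test. Each fit had 2 residual degrees of freedom, and the count of called genes moved with single libraries: 22 without Ex 1, 4 without Ex 2, 74 without Sed 1 and 279 without Sed 2. The genes given next are therefore levels, and none of them is called changed.

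Among genes higher in both Ex libraries, the lowest p belonged to genes of several kinds. Rab8b (chromosome 9, 66843664 to 66919687), a small GTPase of vesicle transport, had 157 and 156 CPM in Ex 1 and Ex 2, against 17.7 and 32.9 CPM in Sed 1 and Sed 2 (log2 difference 2.58 ± 0.47, adjusted p 0.146). Its UMIs were spread over 55 and 27 members of the Ex libraries, against 2 and 2 of the Sed libraries. Pdcd1 (chromosome 1, 94038305 to 94052553), which encodes the checkpoint receptor PD-1, had 127 and 99.5 CPM in Ex 1 and Ex 2, against 5.89 and 22.0 CPM in Sed 1 and Sed 2 (3.11 ± 0.64, adjusted p 0.155). It was found in 25 and 9 Ex members, against 1 and 2 Sed members, where the Sed values are 1 and 2 UMIs, and in at most 0.29% of the C1qa-positive cells. After thinning to 1000 UMIs the shares of members with Pdcd1 were 9.76% and 1.79% in the Ex libraries, against 0% in both Sed libraries, near the level of 1 UMI.

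Itgb1, the beta-1 integrin raised on memory T cells, had 430 and 395 CPM in Ex 1 and Ex 2, against 112 and 165 CPM in Sed 1 and Sed 2 (1.49 ± 0.32, adjusted p 0.183). Its level was not particular to the members. CD8 T cells had 143 and 150 CPM of Itgb1 in Ex, against 45.6 and 90.0 CPM in Sed. Regulatory T cells had 176 and 121 CPM in Ex, against 0 and 0 CPM in Sed. Cells with Zbtb16 or Klrb1c had 289 and 369 CPM in Ex, against 116 and 194 CPM in Sed. Egr1, an early gene of T cell receptor signalling, had 109 and 103 CPM in the Ex libraries, against 11.8 and 22.0 CPM in the Sed libraries (2.60 ± 0.58, adjusted p 0.228). Ifi27, an interferon-induced gene, had 159 and 133 CPM in Ex, against 17.7 and 54.9 CPM in Sed (2.07 ± 0.48, adjusted p 0.247). These 3 genes came from many cells, with Itgb1 in 66 and 34 Ex members against 11 and 7 Sed members.

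Other genes in this set are known from other cells or rested on few cells. Irf8, a regulator of dendritic cells, macrophages and B cells that is also induced in T cells, had 155 and 133 CPM in Ex 1 and Ex 2, against 17.7 and 22.0 CPM in Sed 1 and Sed 2, and 1 cell held 31 of its 84 UMIs in Ex 1. Apoe, a lipid carrier of hepatocytes and macrophages, had 348 and 683 CPM in the Ex libraries, against 47.1 and 121 CPM in the Sed libraries, and 1 cell held 173 of its 206 UMIs in Ex 2. Igfbp7, an endothelial gene, had 27 and 31 UMIs in Ex 1 and Ex 2 and 0 UMIs in both Sed libraries. Apoe was found in at least 91.1% of the C1qa-positive cells of every library, against 26.0% and 16.1% of Ex members and 16.7% and 32.0% of Sed members. The summed level of the 8 endothelial markers was 210 and 766 CPM in Ex 1 and Ex 2, against 53.0 and 43.9 CPM in Sed 1 and Sed 2, and that of the 15 hepatocyte markers 402 and 733 CPM, against 70.6 and 198 CPM. The part of these markers in the result was not tested.

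Among genes lower in both Ex libraries, Myc (chromosome 15, 61985391 to 61990374), a driver of T cell growth, had 20.3 and 13.3 CPM in Ex 1 and Ex 2, against 100.1 and 98.8 CPM in Sed 1 and Sed 2 (-2.62 ± 0.50, adjusted p 0.146). Its Sed values are 17 and 9 UMIs, from 10 and 3 cells. Neb, which encodes the muscle protein nebulin, had 11.1 and 9.95 CPM in the Ex libraries, against 118 and 54.9 CPM in the Sed libraries (-3.24 ± 0.66, adjusted p 0.155), and was found in 16 of 42 members of Sed 1. Regulatory T cells had 80.5 and 229 CPM of Neb in Ex 1 and Ex 2, against 252 and 161 CPM in Sed 1 and Sed 2. CD8 T cells had 2.20 and 1.32 CPM of it in Ex, against 41.3 and 9.35 CPM in Sed. Jaml, an adhesion molecule of leukocytes, had 44.2 and 33.2 CPM in Ex, against 141 and 121 CPM in Sed (-1.88 ± 0.43, adjusted p 0.247). Irf7, the regulator that amplifies type I interferon, had 112 and 73.0 CPM in Ex 1 and Ex 2, against 218 and 373 CPM in Sed 1 and Sed 2 (-1.70 ± 0.35, adjusted p 0.155). In Sed 2 a single cell held 24 of its 34 Irf7 UMIs, and the sign of the Irf7 difference was positive, at 0.25, among members with at least 2 Cd4 UMIs. CD8 T cells had 109 and 59.3 CPM of Irf7 in Ex, against 165 and 178 CPM in Sed. Regulatory T cells had 117 and 121 CPM of it in Ex, against 252 and 699 CPM in Sed. Cells with Zbtb16 or Klrb1c had 116 and 38.2 CPM in Ex, against 206 and 150 CPM in Sed. Ifi213, an interferon-inducible gene, Msrb1, a methionine sulfoxide reductase, Il1r2 and the myosin gene Myo6 completed this set, with log2 differences from -1.71 to -2.65 and adjusted p from 0.146 to 0.247. Il1r2, a decoy receptor abundant in neutrophils, had 20 UMIs in Sed 1, of which 1 cell held 14.

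Of the genes of CD4 help and activation, Cd40lg, Cd44, Egr1 and Cd6 did not overlap between the groups, with Ex higher, and 0 were called. Cd40lg had 90.3 and 46.4 CPM in Ex 1 and Ex 2, against 17.7 and 43.9 CPM in Sed 1 and Sed 2 (1.25 ± 0.61, adjusted p 0.687), and the values of Ex 2 and Sed 2 lay close together. Thinned to 1000 UMIs, Cd40lg was in 9.76% and 1.79% of Ex members, against 4.76% and 0% of Sed members. Icos had 190 and 222 CPM in the Ex libraries, against 147 and 241 CPM in the Sed libraries, with a log2 difference of 0.01 ± 0.32. Cd44, the adhesion receptor that marks antigen-experienced T cells, had 184 and 179 CPM in Ex, against 41.2 and 87.8 CPM in Sed (1.48 ± 0.39, adjusted p 0.264), and its groups did not overlap. Cd69, an early activation and residency marker, had 240 and 182 CPM in Ex 1 and Ex 2, against 206 and 165 CPM in Sed 1 and Sed 2, which overlap. Of the 21 genes listed for activation and costimulation 18 were tested, 0 passed, and 4 did not overlap with Ex higher (0 with Ex lower), a share near the 24.8% over all genes. Cd6, a T cell surface receptor, had 109 and 139 CPM in Ex, against 53.0 and 98.8 CPM in Sed, and was chosen after its values were seen. The list's median log2 difference was 0.33, beside -0.01 over all genes tested.

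Genes of the naive and central memory programme mostly had negative log2 differences, and 1 library weighed heavily in them. All 13 listed genes were tested, 0 passed, and 2 of 13 had a log2 difference above 0, with a median of -0.38. Lef1, a transcription factor of naive cells, had 149 and 239 CPM in Ex 1 and Ex 2, against 271 and 209 CPM in Sed 1 and Sed 2, and the groups overlapped. Tcf7, which encodes TCF-1, had 230 and 434 CPM in the Ex libraries, against 365 and 154 CPM in the Sed libraries (0.10 ± 0.52, adjusted p 0.969). Ccr7 had 95.9 and 136 CPM in Ex, against 183 and 132 CPM in Sed (-0.65 ± 0.37, adjusted p 0.723). The list's summed level was 1868 and 3445 CPM in Ex 1 and Ex 2, against 4321 and 2481 CPM in Sed 1 and Sed 2, so Ex 2 lay above Sed 2.

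The Th1 list had a lower summed level in Sed 1 than in the other 3 libraries. Cxcr3, the Th1 chemokine receptor, had 164 and 129 CPM in Ex 1 and Ex 2, against 17.7 and 65.9 CPM in Sed 1 and Sed 2 (1.91 ± 0.49, adjusted p 0.264). Cxcr6 had 149 and 149 CPM in the Ex libraries, against 0 and 65.9 CPM in the Sed libraries (2.48 ± 0.79, adjusted p 0.495). Tbx21 had 51.6 and 23.2 CPM in Ex, against 0 and 65.9 CPM in Sed, so its highest library was Sed 2. Tnf, an inflammatory cytokine, had 83.0 and 49.7 CPM in Ex 1 and Ex 2, against 17.7 and 154 CPM in Sed 1 and Sed 2, where 1 cell of Sed 2 held 13 of its 14 UMIs. Il2 had 6 and 2 UMIs in the Ex libraries, against 0 and 1 UMI in the Sed libraries. Of 20 listed Th1 genes 15 were tested, 0 passed, 6 did not overlap with Ex higher and 1 with Ex lower (24.8% and 13.7% over all genes), and the median log2 difference was 0.96. Summed, the list had 4567 and 3522 CPM in Ex, against 589 and 4281 CPM in Sed, so the 3 libraries other than Sed 1 lay between 3522 and 4567 CPM.

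Effector genes were often found in the same members, as were checkpoint and costimulatory genes. Of 89 members with a UMI of Nkg7, 69.7% also had Ccl5, 50.6% Ifng, 46.1% Cxcr6 and 30.3% Tbx21, against 15.3%, 5.7%, 7.6% and 5.1% of the 157 members with none. Of the 37 members with Pdcd1, 73.0% also had Tox, 78.4% Icos, 59.5% Ctla4 and 45.9% Cd40lg, against 16.3%, 30.1%, 22.5% and 15.8% of the 209 without Pdcd1. These shares pool the 4 libraries and are not adjusted for depth: a cell with more UMIs is more likely to show both genes of a pair. Cells with Zbtb16 or Klrb1c, which the gate leaves out, held Cxcr6 and Nkg7 too. Cxcr6 had 312 and 404 CPM there in Ex 1 and Ex 2, against 97.4 and 192 CPM in Sed 1 and Sed 2. Nkg7 had 1380 and 1154 CPM there in Ex, against 1689 and 1947 CPM in Sed. Whether members include such cells in which neither gate gene was seen was not tested. Regulatory T cells, which the gate leaves out by Foxp3, held Icos, Ctla4 and Tox in 65.3%, 89.8% and 44.9% of 49 cells. Of the 69 members with Ctla4, 42.0% also had the regulatory T cell gene Ikzf2, against 10.7% of the 177 without Ctla4. Whether members include regulatory T cells in which no Foxp3 UMI was seen was not tested either.

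The defining cytokines of the other helper subsets, Il4, Il17a and Il21, were rare, whereas Maf and Gata3 were more widely seen. Maf, a factor of follicular helper and other cytokine-producing T cells, was found in 106 of 246 members, with 313 and 318 CPM in Ex 1 and Ex 2, against 165 and 439 CPM in Sed 1 and Sed 2, and was chosen after its values were seen. The Th2 list of 10 genes had 3 tested, the Th17 list of 11 had 4 and the follicular helper list of 12, which holds Maf and Pdcd1, had 5, with 0 called in each. The follicular helper list summed to 925 and 929 CPM in Ex, against 653 and 911 CPM in Sed, the Th17 list to 525 and 753 CPM, against 389 and 659 CPM, and the Th2 list to 245 and 262 CPM, against 194 and 241 CPM. Gata3, the Th2 regulator that T cells also use more widely, had 99.6 and 86.2 CPM in Ex 1 and Ex 2, against 53.0 and 22.0 CPM in Sed 1 and Sed 2 (1.01 ± 0.52, adjusted p 0.695). Il4 was found in 3 and 1 members of the Ex libraries, against 0 and 3 members of the Sed libraries. Il17a, the Th17 cytokine, was found in 2 and 1 Ex members, against 0 and 1 Sed members. Of the follicular helper genes, Bcl6 was found in 10 and 6 Ex members against 1 and 1 Sed members, Cxcr5 in 6 and 5 against 1 and 0, and Il21 in 3 and 0 against 0 and 0. Bcl6 was also found in 6.85% to 16.9% of the C1qa-positive cells, so its share in members, 8.13% and 10.7% in Ex and 2.38% and 4.0% in Sed, is not above that level. At the counts of Il4, Il17a, Il21, Bcl6 and Cxcr5 a difference between the groups was not detectable.

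Interferon-stimulated genes, the response programme to type I and type II interferon, were uneven among the libraries. Of 52 listed genes 44 were tested, 0 passed, and 8 had an unadjusted p under 0.05, each lower in Ex. The groups did not overlap for 4 genes with Ex higher and 10 with Ex lower, where the shares over all genes were 24.8% and 13.7%. The median log2 difference was -0.53, beside -0.01 over all genes tested, of which 3.57% were lower at an unadjusted p under 0.05. The summed level was 10418 and 7435 CPM in Ex 1 and Ex 2, against 9396 and 15092 CPM in Sed 1 and Sed 2, so Sed 1 lay within the range of the Ex libraries. Oasl2, an antiviral gene, had 27.7 and 9.95 CPM in Ex, against 70.6 and 110 CPM in Sed (-2.16 ± 0.57, adjusted p 0.264), and was chosen after its values were seen.

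Glycolytic enzymes had higher levels in Ex for most genes tested, with 0 called. Of the 15 glycolysis genes 12 were tested, 10 did not overlap with Ex higher and 0 with Ex lower (24.8% and 13.7% over all genes), and the median log2 difference was 0.55. Their summed level was 3899 and 3920 CPM in Ex 1 and Ex 2, against 2214 and 3051 CPM in Sed 1 and Sed 2. All 23 genes of the early response and heat shock list were tested, with 1 not overlapping above and 5 below, and a median of -0.14. Among 9 tested genes of apoptosis and survival, Bcl2, which protects resting T cells from death, had 164 and 153 CPM in Ex, against 971 and 329 CPM in Sed (-2.26 ± 0.60, adjusted p 0.437). Bcl2 was chosen after its values were seen, and its highest library was again Sed 1.

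Few genes of the checkpoint list passed the filter on low counts. Of its 12 genes 5 were tested, 0 passed, 4 did not overlap with Ex higher, where the share over all genes was 24.8%, and the median log2 difference was 2.15. Lag3, another inhibitory receptor, had 43 and 17 UMIs in Ex 1 and Ex 2, against 0 and 1 UMI in Sed 1 and Sed 2, and Nr4a2, a nuclear receptor of T cell stimulation, 69 and 33 UMIs against 0 and 6. Tox, a regulator of exhausted and follicular helper cells, had 118 and 126 CPM in the Ex libraries, against 47.1 and 76.8 CPM in the Sed libraries (0.91 ± 0.40, adjusted p 0.628). These 3 genes were chosen after their values were seen. The list's sum was 876 and 660 CPM in Ex, against 206 and 538 CPM in Sed. Of the other lists, the 20 T cell receptor signalling genes had 19 tested, 11 not overlapping with Ex higher and a median of 0.49, and the 14 cytotoxic genes 7 tested, 2 not overlapping with Ex higher, near the 24.8% over all genes, and a median of 0.64. The 20 genes of chemokine receptors and trafficking had 15 tested, 7 not overlapping with Ex higher, 1 with Ex lower and a median of 0.49, where all genes tested had a median of -0.01.

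RNA of other cell types differed between the libraries and was often held by 1 member. The 8 neutrophil markers summed to 4849 and 2026 CPM in Ex 1 and Ex 2, against 3385 and 351 CPM in Sed 1 and Sed 2, and 1 cell held 88.1% of them in Ex 1 and 1 cell 92.0% in Sed 1. The 10 B cell markers summed to 1764 and 1220 CPM in the Ex libraries, against 206 and 4116 CPM in the Sed libraries. The 13 macrophage and monocyte markers summed to 2166 and 739 CPM in Ex, against 1807 and 2360 CPM in Sed. Regulatory T cell genes other than Foxp3 summed to 1034 and 710 CPM in Ex 1 and Ex 2, against 589 and 1240 CPM in Sed 1 and Sed 2, and 48 members held a UMI of Ikzf2. The 8 CD8 T cell markers, with both CD8 chains at 0 by the gate, summed to 144 and 136 CPM in Ex, against 23.5 and 110 CPM in Sed. The NK and ILC1 markers summed to 1060 and 584 CPM in Ex, against 583 and 1888 CPM in Sed, and Ncr1 was at 0 in all 4 libraries. The part of this RNA in the results was not tested.

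The response to exercise was then set against that of CD8 T cells of the same libraries, 358 and 238 cells in Ex 1 and Ex 2 and 305 and 488 cells in Sed 1 and Sed 2. In CD8 T cells the Th1 list, which shares effector genes such as Ccl5 with them, summed to 8098 and 8101 CPM in Ex, against 18562 and 28333 CPM in Sed, unlike the sums of the conventional CD4 T cells given above. The naive and central memory list summed to 2435 and 4221 CPM in CD8 T cells of Ex, against 2375 and 789 CPM in Sed. The difference between the Ex-over-Sed effects of both classes passed the test for 359 of 8540 genes (4.2%), with 1215 (14.2%) at an unadjusted p under 0.05. It was higher in conventional CD4 T cells for 210 genes (2.46%) and lower for 149 (1.74%), by edgeR's quasi-likelihood test of the interaction with library as a block. The fit had 2 residual degrees of freedom and a median of 387 prior ones, so these p-values lean on the spread shared across genes. The count was 167 without Ex 1, 146 without Ex 2, 157 with a stricter filter on cells and 125 with the newer edgeR handling of low counts.

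**Figure D3:**
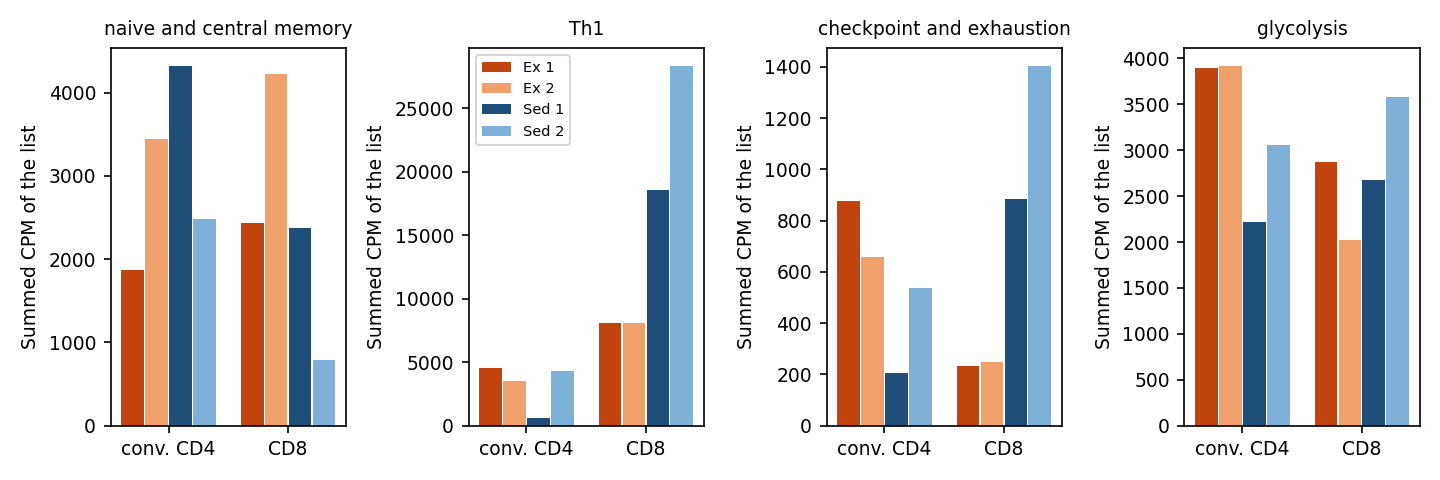
Summed CPM of 4 gene lists in the conventional CD4 T cells and in the CD8 T cells, 1 bar per library. The Th1 sum of conventional CD4 T cells is lowest in Sed 1, at 589 CPM, and in CD8 T cells the Th1 and checkpoint sums are lower in both Ex libraries than in both Sed libraries.

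S100a4 (chromosome 3, 90603771 to 90606045), a calcium-binding protein of memory and effector cells, had, with Ngp, the lowest p. It had 961 and 739 CPM in conventional CD4 T cells of Ex 1 and Ex 2, against 300.2 and 889 CPM in Sed 1 and Sed 2. In CD8 T cells it had 179 and 145 CPM in the Ex libraries, against 1015 and 1528 CPM in the Sed libraries. The effect was 3.53 ± 0.23 higher on the log2 scale in conventional CD4 T cells (adjusted p 3.64e-37, from 4.61e-53 to 0.000528 over 10 alternatives). Ifi27l2a, an interferon-induced gene, had 2039 and 1459 CPM in conventional CD4 T cells of Ex, against 1978 and 2228 CPM in Sed. In CD8 T cells it had 528 and 285 CPM in Ex, against 2147 and 2123 CPM in Sed, a difference of effects of 2.06 ± 0.18 (adjusted p 3.54e-23). For both genes the CD4 groups overlapped and the CD8 groups did not. The third gene named by its low p, the neutrophil gene Ngp, had 324 UMIs in the Ex 1 members and 0 in the other 3 libraries, and 1 cell held 323 of them.

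The naive and central memory genes that were called differed between the T cell classes in 1 direction. Of the 13 listed genes 8 were called lower in their effect in conventional CD4 T cells and 0 higher. Over all genes tested 1.74% were called lower and 2.46% higher. The list's median difference was -1.52, beside 0.13 over all genes tested. Il7r had 282 and 641 CPM in CD8 T cells of Ex 1 and Ex 2, against 348 and 87.5 CPM in Sed 1 and Sed 2, and its difference of effects was -2.17 ± 0.25 (adjusted p 1.72e-13). Lef1 (-1.72 ± 0.33, adjusted p 3.83e-05), Tcf7 (-1.54 ± 0.30, adjusted p 6.36e-05) and Ccr7 (-1.29 ± 0.38, adjusted p 0.0213) differed in the same direction. In conventional CD4 T cells the groups overlapped for each of these genes. In CD8 T cells Lef1 had 177 and 318 CPM in Ex, against 166 and 41.3 CPM in Sed. Tcf7 had 269 and 377 CPM there in Ex, against 169 and 34.9 CPM in Sed. Ccr7 had 94.6 and 215 CPM there in Ex, against 142 and 33.4 CPM in Sed, which overlap. The Ccr7 call was lost without Sed 2, with an adjusted p of 0.316, and without Ex 2, with 0.613 (from 0.00417 to 0.613 over 10 alternatives).

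The checkpoint genes that were called differed in the other direction, and trafficking genes in both. Over all genes tested 2.46% were called higher and 1.74% lower. Of the 12 checkpoint genes 11 were tested, 7 were called higher in their effect in conventional CD4 T cells and 0 lower. One of the 7, Rgs16, a regulator of G protein signalling, had 0 UMIs in both Sed libraries of conventional CD4 T cells, so its effect there was not measured. Of the 20 genes of chemokine receptors and trafficking 19 were tested, 5 called higher, among them Cxcr6, and 3 called lower, which were Ccr7, S1pr1, the receptor for exit from lymphoid organs, and Klf2, a factor of resting T cells; the naive and central memory list holds these 3 as well. Pdcd1 had 6.60 and 13.8 CPM in CD8 T cells of Ex 1 and Ex 2, against 70.0 and 123 CPM in Sed 1 and Sed 2, opposite to the CD4 levels (difference of effects 6.41 ± 0.62, adjusted p 4.03e-19). Cxcr6 had 69.0 and 54.7 CPM in CD8 T cells of Ex, against 99.4 and 296 CPM in Sed (4.05 ± 0.49, adjusted p 2.24e-12). Ctla4, the inhibitory receptor that competes with CD28, was also called, at 2.17 ± 0.43 (adjusted p 6.46e-05), with 234 and 136 CPM in conventional CD4 T cells of Ex against 47.1 and 230 CPM in Sed. Of 14 cytotoxic genes 4 were called higher and 0 lower, but 2 of the 4, Gzma and Gzmk, had 0 UMIs in both Sed libraries of conventional CD4 T cells, so their effect was not measured there. Gzma, which encodes granzyme A, had 107 and 193 CPM in CD8 T cells of Ex, against 5705 and 6762 CPM in Sed, and in conventional CD4 T cells 4 and 2 UMIs in Ex against 0 and 0 in Sed. Ctla4, Gzma, Gzmk, Rgs16, S1pr1 and Klf2 were chosen after their values were seen.

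**Figure D4:**
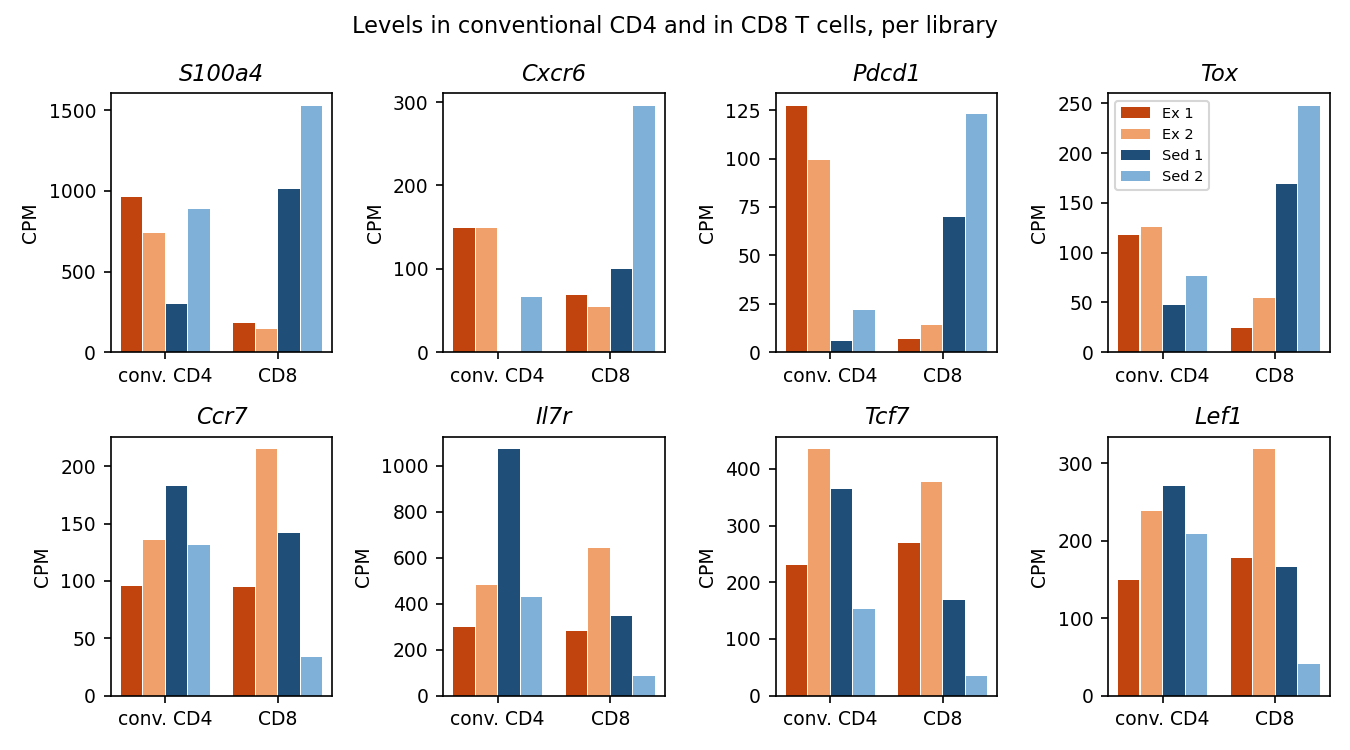
CPM of 8 genes in the summed conventional CD4 and CD8 T cells of each library. In CD8 T cells S100a4, Cxcr6, Pdcd1 and Tox are lower in both Ex libraries than in both Sed libraries, while in conventional CD4 T cells Cxcr6, Pdcd1 and Tox are higher in both Ex libraries.

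Metabolic lists also differed, where 2.46% of all genes tested were called higher and 1.74% lower. All 15 glycolysis genes had a log2 difference above 0, with 4 called higher and 0 lower and a median of 0.97, and Gapdh had 1101 and 1144 CPM in conventional CD4 T cells of Ex against 659 and 922 CPM in Sed. In CD8 T cells Gapdh had 792 and 511 CPM in Ex, against 922 and 1163 CPM in Sed (difference of effects 1.11 ± 0.21, adjusted p 1.48e-05). Of the 13 transcripts encoded by the mitochondrial genome 6 were called lower and 0 higher, with a median of -0.52. Their sum was 41479 and 44443 CPM in conventional CD4 T cells of Ex against 38614 and 32950 CPM in Sed, and 45818 and 48977 CPM in CD8 T cells of Ex against 32697 and 28699 CPM in Sed. The median share of mitochondrial UMIs over all kept cells was 3.92% and 4.36% in Ex 1 and Ex 2, against 2.61% and 2.97% in Sed 1 and Sed 2, and its part in this list was not tested. Gapdh was chosen after its values were seen.

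RNA of other cells moved with this comparison too, in which 2.46% of all genes tested were called higher and 1.74% lower. The neutrophil markers summed to 865 and 587 CPM in CD8 T cells of Ex, against 11210 and 3815 CPM in Sed. In their effect in conventional CD4 T cells, 3 of 8 were called higher, as were 2 of 7 tested endothelial markers and 3 of 10 regulatory T cell markers. Also called higher were 3 of 6 tested CD8 T cell, 1 of 5 B cell, 1 of 3 dendritic and 1 of 4 NKT and gamma-delta T cell markers. Of 6 tested NK and ILC1 markers 1, Xcl1, was called lower. Of the hepatocyte, macrophage and monocyte, and erythroid markers 0 were called. Their part in the result was not tested. With doublet scores above the expected rate left out of both classes, 334 genes were called, 284 of them among the 359.

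Against regulatory T cells, the other CD4 class, no difference of the exercise effect passed the test. Foxp3-positive cells of the same gate numbered 22 and 10 in Ex 1 and Ex 2, against 11 and 6 in Sed 1 and Sed 2, and edgeR called 0 of 2284 genes (0%), with 134 (5.87%) at an unadjusted p under 0.05. The count was 2 without Ex 1, 4 without Ex 2, 5 without Sed 1 and 3 without Sed 2. Their share of the kept cells was 0.300% ± 0.0901 in Ex and 0.115% ± 0.0513 in Sed (SD, n = 2 libraries each), with a log2 difference of 1.41 ± 0.54 and an adjusted p of 0.0501. Their median UMIs were 5687.5 and 7152 in Ex, against 2457 and 1840.5 in Sed. Among cells thinned to 1000 UMIs, 3 and 1 regulatory T cells were found in Ex, against 4 and 1 in Sed. Nr4a2 had 73.2 and 53.8 CPM in regulatory T cells of the Ex libraries, against 189 and 484 CPM in the Sed libraries (difference of effects 4.35 ± 0.95, adjusted p 0.581). Tubb4b, a tubulin chain, had 22.0 and 13.5 CPM there in Ex, against 283 and 215 CPM in Sed, and 68.2 and 92.9 CPM in conventional CD4 T cells of Ex against 41.2 and 54.9 CPM in Sed (4.17 ± 0.91, adjusted p 0.581). The gene of lowest p, Il1b, had 188 and 262 CPM in conventional CD4 T cells of Ex against 17.7 and 176 CPM in Sed, and 0 and 26.9 CPM in regulatory T cells of Ex against 0 and 1183 CPM in Sed, where 1 cell of Sed 2 held all 22 UMIs.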

How the data were processed

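Single-cell RNA was measured in 4 libraries, 2 Ex and 2 Sed, grouped by their titles. UMI counts of every gene in every droplet were deposited as 1 matrix, which the authors aggregated with Cell Ranger, 7.0.0 per the submitters' processing notes (builds mm10 and GRCm38) and 6.1.1 per the file headers. Of its 51140 columns 28525 carry a barcode, and the other 22615 were not used. Each barcode's library was taken from its numeric suffix, assumed to follow the line order of the deposited aggregation table, and barcodes were assumed to name the first columns. Changes in expression along the columns lay within 33 cells of the ends of these blocks. Kept libraries held 31535530 and 22210100 UMIs (Ex), against 36539965 and 40010184 (Sed).

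Counts were summed per library and gated class and tested with edgeR 4.0.16 (quasi-likelihood, robust, filterByExpr, TMM, library totals over all genes, Benjamini-Hochberg, threshold 0.05) in R 4.3.3, with DESeq2 1.42.0 as an alternative. Gate genes were not tested. Shares were tested with the cells per class, and differences of effects by an interaction with library as a block. With 2 libraries per group, an exact two-sided permutation test cannot go below 0.333 and was not used. Doublets were scored with the Scrublet of scanpy 1.11.5, and the highest scores up to 0.8% per 1000 cells were left out in an alternative. Reads of near-identical genes (Trbc1 and Trbc2, the Ifi27 family) may be split uncertainly. Scripts were tested on simulated data. Coordinates are from GENCODE vM21.

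Members and lists were chosen with earlier results of these data known. The naming rule took the 12 largest called changes per direction with at least 20 CPM and no overlap between groups, or, with too few called, genes of lowest p up to 8; ribosomal, mitochondrial, predicted and receptor segment genes were passed over. It added up to 4 called genes per list, the 3 lowest p of each difference of effects, and a fixed set of genes. Some fixed genes, and 1 alternative that rested on them, are not reported here. The replicate numbers do not pair the libraries: deviations from the group means had a correlation of -0.138 between same-numbered libraries. Alternatives varied the scaling, tool, filters, gate, doublets, depth, pairing and single libraries.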

Additional observations from a re-analysis of the deposited data

Results flagged for a closer look

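The effect of exercise differed between conventional CD4 and CD8 T cells for the 14 genes given here, each by the test of the difference itself (edgeR, adjusted over 8540 genes). For naive and resting genes the effect in conventional CD4 T cells was lower than that in CD8 T cells. The log2 difference of effects was -1.29 for Ccr7, -1.72 for Lef1, -1.54 for Tcf7 and -2.17 for Il7r. It was -2.25 for Satb1, a chromatin organiser of T cells, and -1.83 for Bcl2. Except for Bcl2, the Ex and Sed levels of these genes overlapped in conventional CD4 T cells. The effect was higher for S100a4, the chemokine receptor Cxcr6, 3 checkpoint genes and an interferon-induced gene: 3.53 for S100a4, 4.05 for Cxcr6, 6.41 for Pdcd1, 3.41 for Tox, 4.65 for Nr4a2 and 2.06 for Ifi27l2a. The glycolytic enzymes Pgk1 and Tpi1 had differences of 1.37 and 1.40. Tox, Nr4a2, Satb1, Bcl2, Pgk1 and Tpi1 were chosen after their values were seen. The 14 leave out genes named only by the test between Ex and Sed members or by that against regulatory T cells. Among those left out, the same test also passed for Irf8 (4.32), Rab8b (3.11), Egr1 (2.82), Ifi27 (2.29) and Il1b (1.65). It passed in the other direction for Myc (-3.14) and Jaml (-1.86).

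Satb1 had 122 and 338 CPM in conventional CD4 T cells of Ex 1 and Ex 2, against 271 and 198 CPM in Sed 1 and Sed 2, and 313 and 509 CPM in CD8 T cells of Ex, against 151 and 58.5 CPM in Sed. Bcl2 had 539 and 573 CPM in CD8 T cells of Ex, against 779 and 541 CPM in Sed. Pgk1 had 249 and 371 CPM in conventional CD4 T cells of Ex, against 94.2 and 198 CPM in Sed, and 170 and 118 CPM in CD8 T cells of Ex, against 158 and 207 CPM in Sed. Tpi1 had 234 and 262 CPM in conventional CD4 T cells of Ex, against 58.9 and 154 CPM in Sed, and 156 and 78.4 CPM in CD8 T cells of Ex, against 119 and 137 CPM in Sed. The Pgk1 call was lost without Ex 2 and without Sed 1, with adjusted p of 0.524 and 0.0971 (from 0.00112 to 0.524 over 10 alternatives). The Tpi1 call was lost without the same libraries, with 0.566 and 0.345 (from 0.0019 to 0.566). Groups of 2 libraries allow no search for a library that lies apart within its group.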

How the results depend on the processing

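Between Ex and Sed members, 0 genes were called with DESeq2's size factors or Wald test, stricter cells, no high doublet scores, thinned sums and the newer edgeR handling. The count was 55 with no low count filter, 19 without cells holding Trdc, Ncr1, Ms4a1, Csf1r or Clec4f, 2 with at least 2 Cd4 UMIs, 6 with the replicate block and 57 with crossed numbers. The crossed numbers, the newer edgeR handling and, for the differences of effects, the doublet and 5-marker settings were chosen after seeing the data. Leaving out 1 library gave 4 to 279 genes, with the lone library assumed to vary like the other group. The Irf7 difference was 0.25 with at least 2 Cd4 UMIs. Of 219 values of single genes in this comparison, 72 passed the threshold under an alternative.

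The share's log2 difference ran from 1.54 to 2.36 over the libraries left out and was 1.89 with the replicate block, which changed no call there. The difference from CD8 T cells gave 157 genes with stricter cells, 125 with the newer edgeR handling and 146 to 321 with 1 library left out; of 140 values of single genes, 124 kept their direction and call and 16 their direction only. The difference from regulatory T cells gave 5 genes with no filter, 10 without high doublet scores, 8 without the 5 further markers and 2 to 5 with 1 library left out. Il1b there was -1.05 without the 5 further markers, -0.67 without Sed 2 and 9.70 at most. The causes were not tested. The small Sed sums, 1 UMI of which is 5.89 or 11.0 CPM, limit every gene of low level.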
